A study of Rattus norvegicus with 18 samples.

Results

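The genes described here encode the proteins of the mitochondrial ribosome. They were taken as the protein-coding genes of the deposited table whose symbols begin with Mrpl (large subunit) or Mrps (small subunit) followed by a number, with no use of their measured values. This gave 75 of 32545 genes, 46 Mrpl and 29 Mrps, on 18 chromosomes and none on the mitochondrial genome. Of these, 73 genes (44 Mrpl and 29 Mrps) reached 1 FPKM (fragments scaled for gene length and library, the deposited unit) in at least 3 libraries and were tested among 11917 genes. The other two are a second Mrpl36 and a second Mrpl53 identifier, both listed at 0 in every library. Without the ES50 libraries 72 of the 73 would still have passed, the exception being Mrpl53. By symbol, mrpl9, mrpl11, mrpl24, Mrp63 (Mrpl57) and Ict1 (Mrpl58) fell outside the rule. So did 1 pseudogene row named Mrps36.

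The mitochondrial ribosome translates the few messages of the mitochondrial genome, all of them for subunits of the respiratory chain and ATP synthase. Its ribosomal RNAs come from mitochondrial DNA, whereas all of its proteins are encoded in the nucleus, made in the cytosol and imported. Many of these proteins have a bacterial counterpart, and others are specific to mitochondria. A heart cell, with its dense mitochondria, depends on this machinery for oxidative phosphorylation.

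The samples were 18 RNA-seq libraries of H9C2, a rat line of embryonic heart origin, with 3 libraries in each of 6 groups. NC cells were untreated. ES10 and ES50 cells received 10 or 50 electric pulses, with a length of 100 µs and a field of 1500 V/cm. For P, cells spent 48 h in 50 µmol/L of an agent named only PE. P-ES10 and P-ES50 combined that exposure with 10 or 50 pulses given afterwards. The question behind the series is what these pulses do to heart muscle cells and their mitochondria. All groups share the line and carry no stated genetic change, the time from pulses to harvest is not given in the sources used here, and nothing says that replicates came from separate cultures, so the p-values rest on differences among libraries that may be only technical. The line is labelled myocardium. Of 10 cardiomyocyte markers 4 reached a mean of 1 FPKM in NC, Tnnt2 (12.1), Tnni3 (2.18), Gata4 (1.90) and Pln (1.64), whereas Myh6, Myh7, Nkx2-5, Nppa, Ryr2 and Actn2 had means of at most 0.252 FPKM in all groups. Of 6 skeletal myoblast markers 3 reached it, with Myod1 at 32.0, and Col1a1 of fibroblasts stood at 1449 FPKM.

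Between 14004929 and 17247201 reads per library fell on genes, as worked out from the FPKM values. The mitochondrial genome took 11.6 to 14% of them in NC, 91.4 to 92.9% in ES50 and 46.7 to 49.6% in P-ES50, so that only 1230554 to 1466851 reads fell on nuclear genes in ES50. The deposited values set the median gene about equal between libraries. Rescaling to all reads on genes moved the median gene by -2.30 on the log2 scale in ES50 versus NC and by -0.76 in P-ES50 versus P, and directions given below are those of the deposited scaling, relative to other genes. In ES50 the 5 fibroblast markers summed to 370 to 389 FPKM against 2009 to 2057 in NC, and all 3 that were tested fell. The 10 cardiomyocyte markers summed to 49.9 to 58.1 against 17.4 to 18.9, but of the 4 tested 2 rose (Tnnt2 and Pln), Tnni3 fell (-1.13) and Gata4 did not pass, and 4 of the 10 were listed at 0 in ES50. The 6 skeletal myoblast markers summed to 88.7 to 97.4 against 127 to 128, where Cdh15, the most abundant, fell from 85.4 to 14.6 and the other 3 tested, Myod1, Myog and Des, rose. In P-ES50 the fibroblast markers summed to 1674 to 1716 against 2203 to 2286 in P. The defining endothelial and immune genes Cdh5 and Ptprc were listed at 0 in all libraries. The 3 immune markers summed to 1.4 to 1.66 FPKM in NC and 0 to 2.28 in ES50, and the 1 tested, Cd68, fell from a mean of 0.934 in NC to a listed 0 in ES50. Bulk libraries cannot tell fewer cells of a type from less RNA per cell, and the part of these markers and of the mitochondrial share in the results below was not tested.

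Mitoribosomal protein genes took a larger share of the nuclear reads after 50 pulses without PE, and a far smaller share of all reads. They held 0.233, 0.226 and 0.232% of reads on nuclear genes in the NC libraries, 0.206, 0.206 and 0.212% in ES10, and 0.470, 0.484 and 0.485% in ES50. With PE the shares were 0.228, 0.226 and 0.242% in P, 0.209, 0.206 and 0.208% in P-ES10, and 0.263, 0.263 and 0.263% in P-ES50. No ES50 library overlapped with any other library, and P-ES50 lay above P in all 3 libraries. Per 1000000 reads on genes of any kind ES50 was the lowest group: 1958 to 2048 in NC, 336 to 415 in ES50, 2139 to 2288 in P and 1323 to 1400 in P-ES50. An exact two-sided permutation test of 3 against 3 libraries cannot go below 0.1, so these shares are given as values.

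**Figure D1:**
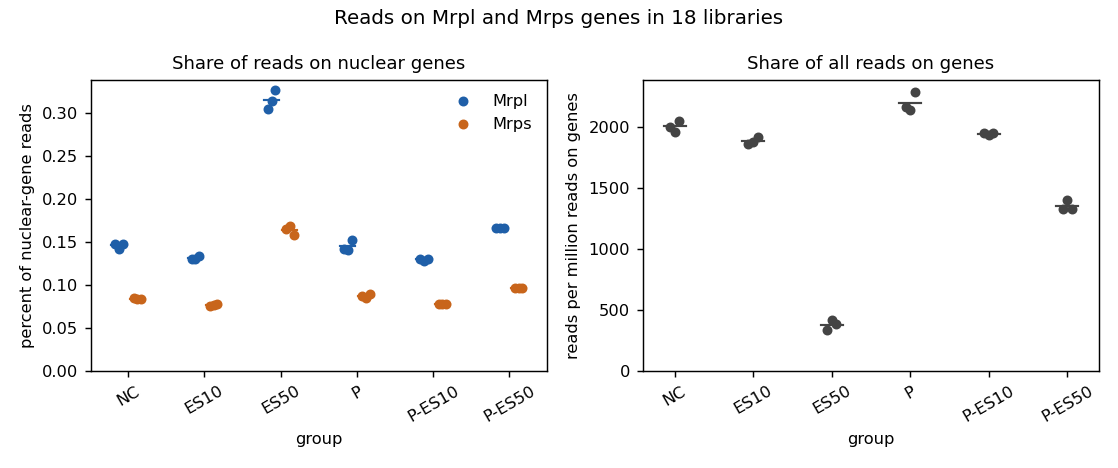
Reads on Mrpl and Mrps genes in each of the 18 libraries (points; lines are group means), as a percent of nuclear-gene reads for both subunits apart (left) and per 1000000 of all reads on genes for both together (right). On the left the ES50 libraries stand highest for both subunits, and on the right they stand lowest, at 336 to 415.

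Levels differed widely among the genes. In NC the median gene stood at 12.4 FPKM, with 12.5 for Mrpl and 11 for Mrps, and group means ran from 0.405 for Mrpl53 to 189 for Mrpl54, a large-subunit protein without bacterial counterpart. Mrpl54 read 193, 181 and 193 FPKM in NC and 549, 551 and 621 in ES50. Mrpl33 followed with 114 ± 10.8 FPKM in NC (SD, n = 3) and then Mrpl17 and Mrpl43, each at 55.3 (SD 2.79 and 3.41). The last of these do not differ beyond their spread. In ES50 the median gene stood at 23.5 FPKM, and 57 of 73 genes reached 10 FPKM, against 44 in NC. The proteins assemble in fixed proportions, but the messages of these 73 genes did not stand at like levels in any group.

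Some genes were too low or too uneven to compare. Mrpl36 had 22 reads over the 3 NC libraries and 0 in ES50, where the nuclear depth was far lower. Mrpl53 held 125 reads (13.7 FPKM) in 1 ES10 library, 0 in another, and at most 9 in any other library of the series. Mrpl30, whose gene spans that of Mitd1 on the opposite strand over 76963 bases, read 0.0301, 1.43 and 2.18 FPKM in NC and 0.154, 3.37 and 6.39 in ES50, so replicates of 1 group differed more than groups did. None of the 3 passed the test in ES50 versus NC.

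After 50 pulses without PE, messages of nearly the whole mitoribosome stood higher relative to other genes. In ES50 versus NC, 63 of 73 genes rose and 2 fell by limma's test with Benjamini-Hochberg adjustment over all 11917 genes (adjusted p under 0.05). Over all genes tested, 31.9% rose and 40.1% fell. The median log2 change (of FPKM plus 1, a scale that understates changes of low genes) was 0.92 for Mrpl and 0.97 for Mrps, against -0.13 for all genes. At least 2-fold rises were called for 34 of the 73, against 11.4% of all genes. In 60 of the 73 all 3 ES50 libraries lay above the other 15, against 23.6% of all genes. The direction depends on the scaling: after rescaling to all reads on genes none rose and 71 fell, with a median of -2.16 for these genes and -2.43 for all genes. Rescaled to nuclear reads 62 rose and 2 fell, and after quantile normalization 67 rose and 1 fell.

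**Figure D2:**
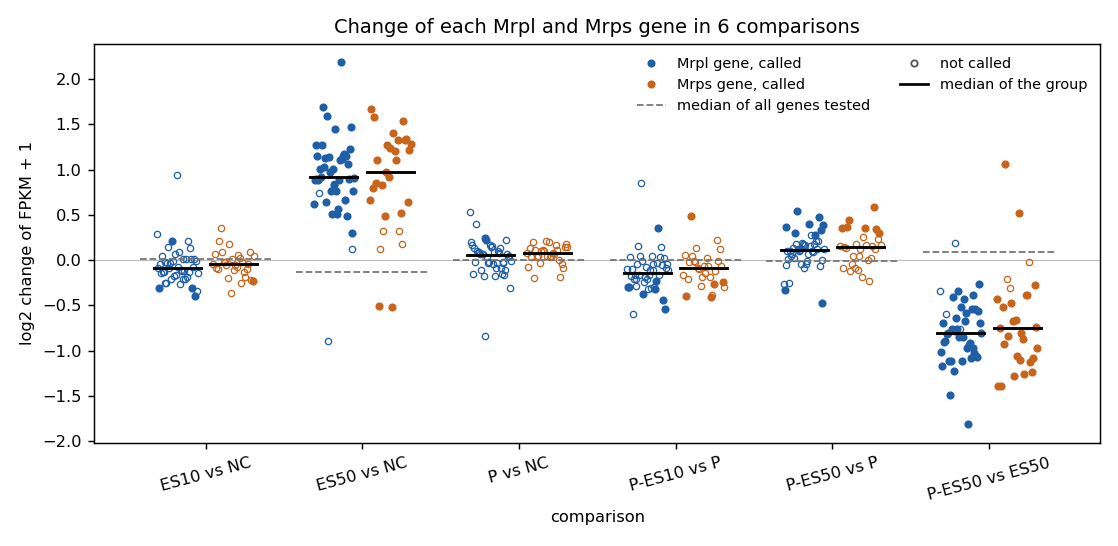
Log2 change of FPKM plus 1 for each tested Mrpl (blue) and Mrps (orange) gene in 6 comparisons; filled points passed the test, black lines are medians of the subunit and dashed lines medians of all genes tested. Both subunits sit well above the dashed line in ES50 versus NC and below it in P-ES50 versus ES50, and close to it in the other 4 comparisons.

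The largest rise was that of Mrpl34, a small bacterial-type protein of the large subunit (chr16:19874034-19874768 in Rnor 6.0). It read 9.88, 9.96 and 11.6 FPKM in NC, 8.62, 9.86 and 10.3 in ES10 and 37.1, 63.2 and 57.4 in ES50. With PE it read 10.2, 12.2 and 11.5 in P, 9.51, 7.91 and 9.60 in P-ES10 and 12.3, 15.2 and 14.2 in P-ES50. The ES50 libraries stood apart from the other 15, also from P-ES50. The log2 change in ES50 versus NC was 2.19 ± 0.15 (SE; adjusted p = 3.6e-09), on 47 to 95 reads per ES50 library. Mrpl42, of the large subunit and without bacterial counterpart, read 16.4, 14.7 and 12.7 FPKM in NC and 55.1, 47.6 and 45.7 in ES50, a change of 1.70 ± 0.11 (adjusted p = 1.2e-09). Mrps21, a bacterial-type protein of the small subunit, read 24.2, 26.2 and 26.6 in NC and 90.4, 92.5 and 70.4 in ES50, a change of 1.67 ± 0.09 (adjusted p = 2.2e-10). For none of these genes did an ES50 library overlap with NC.

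By role, the rise covered proteins inherited from bacteria and those acquired later. Of the bacterial-type proteins, 24 of 26 in the large subunit and 15 of 16 in the small subunit rose and none fell. Of the mitochondria-specific proteins, 17 of 20 in the large subunit rose and none fell, whereas in the small subunit 6 of 10 rose and 2 fell. Mrps18a and Mrps18b were placed in the mitochondria-specific classes, although both are relatives of bacterial protein S18. Mrps18b is among the 2 that fell, so the counts and medians of the classes depend on this placement. The medians of these 4 classes were 1.02, 1.17, 0.89 and 0.64. Among all genes tested 31.9% rose and 40.1% fell, with a median of -0.13. Whether the classes differ was not tested. The stalk brings translation factors to the ribosome. Both of its measured proteins that met the symbol rule rose: Mrpl12 from 16.0 ± 1.21 to 35.9 ± 3.89 FPKM (SD, n = 3) and Mrpl10, which anchors the stalk, from 7.95 ± 0.352 to 15.7 ± 1.48. All 5 measured proteins around the exit of the peptide tunnel that met the symbol rule rose, among them Mrpl17 (1.47 ± 0.05) and Mrpl45, the contact to the inner membrane (0.67 ± 0.07). Mrps12, of the decoding centre, rose from 35.5 ± 1.90 to 96.7 ± 21.5 FPKM, with its ES50 libraries at 122, 84.0 and 84.6. Mrps36, which despite its symbol is now known as a subunit of the alpha-ketoglutarate dehydrogenase complex, rose by 1.11 ± 0.11.

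The genes that did not follow were few. Besides 2 that fell, the 8 that did not pass the test were Mrpl30, Mrpl36, Mrpl44, Mrpl53, Mrps2, Mrps22, Mrps27 and Mrps30. Mrps31, a mitochondria-specific protein of the small subunit, read 6.35, 6.90 and 5.44 FPKM in NC and 2.88, 5.11 and 4.36 in ES50, with no overlap, a change of -0.52 ± 0.14 (limma, adjusted p = 0.0036). Mrps18b, one of 3 relatives of bacterial protein S18 among these genes, read 10.8, 10.5 and 11.3 in NC and 5.48, 10.8 and 6.71 in ES50, and its groups overlapped; the change was -0.50 ± 0.15 (limma, adjusted p = 0.0081). The other S18 relatives rose, Mrps18a (a protein of the large subunit) by 1.21 ± 0.07 and Mrps18c by 1.24 ± 0.13. ES50 libraries held only 10 to 21 reads on Mrps31 and 27 to 63 on Mrps18b. With only the 6 libraries compared in the fit neither call held (adjusted p = 0.0633 and 0.0946), and the call of Mrps31 was also lost after quantile normalization (0.0525), after thinning all libraries to the lowest nuclear depth (0.113) and by voom on recovered reads (0.0829). Mrps30, which sits in the large subunit, read 18.2, 17 and 17.1 FPKM in NC and 21.9, 14.6 and 21.5 in ES50, and Mrpl44, which carries a fold related to RNase III, read 8.83, 9.53 and 9.13 in NC and 11.7, 9.61 and 9.11 in ES50. Neither passed the test, with changes of 0.12 ± 0.11 and 0.13 ± 0.09. Without ES50 replicate 2 Mrps30 did pass as higher, and after quantile normalization so did Mrpl44 (0.22; limma, adjusted p = 0.030).

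**Figure D3:**
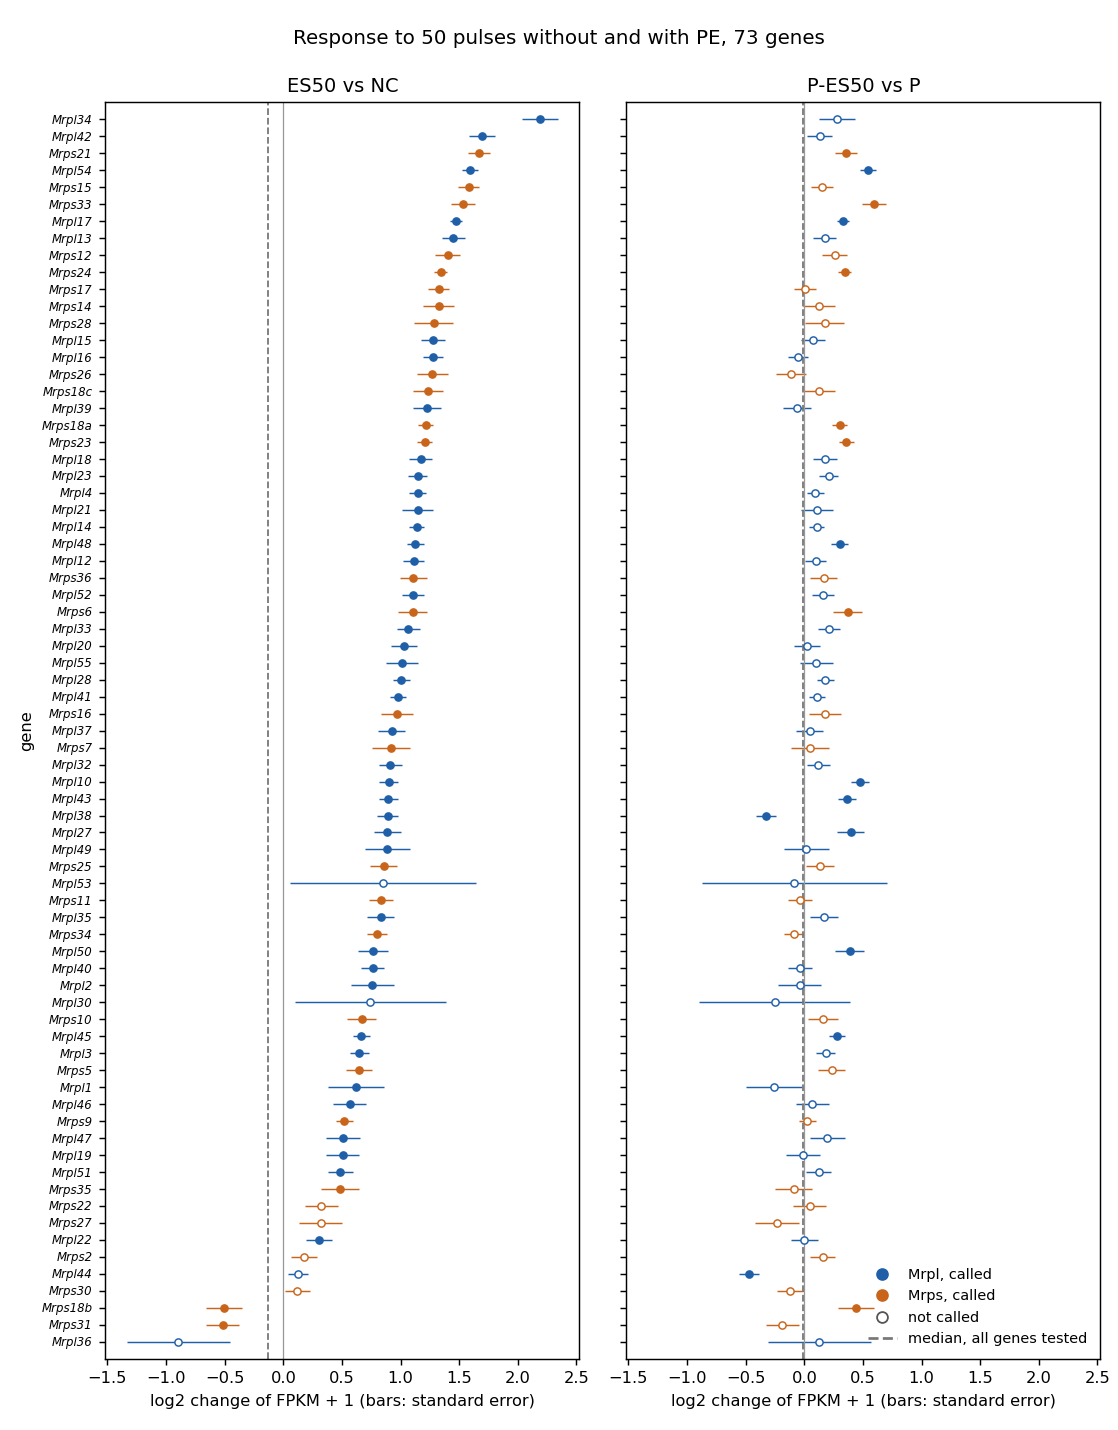
Log2 change with its standard error for each of the 73 tested genes, ordered by ES50 versus NC (left) and shown in the same order for P-ES50 versus P (right); filled points passed the test, dashed lines are medians of all genes. Mrpl34 leads on the left at 2.19 and lies at 0.28, not called, on the right; Mrpl36 at the bottom had no reads in ES50.

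Promoter sequences of 58 of the 73 genes (RefSeq, GRCr8; 250 bases before to 50 after the start) were searched on both strands for strings bound by factors known for nuclear genes of mitochondrial proteins. The ETS string CCGGAAG is bound by GABP (NRF2). It was found in 32.8% of the 58, 19.8% of 7872 tested protein-coding genes and 8.75% of all 33469 promoters. Here and below a gene counts once if any of its promoters holds the string. The last share counts single promoters and is not like the others. The YY1 string AAGATGG was found in 27.6, 9.41 and 7.01%, and the SP1 string GGGCGG in 50.0, 66.0 and 33.1%. The palindromic NRF1 motif was found in 4 of the 58 (6.90%), namely Mrpl17, Mrpl32, Mrpl44 and Mrps18b, against 2.27% and 0.852%. Its inner string GCATGCGC, which lies within it, was found in 8.62, 5.82 and 2.47%. Of the 58, 15 held none of the 5, and only Mrps18b held all 5. The promoters of the 2 genes that rose most and the 2 that fell in ES50 are shown 5′ to 3′ on the gene's strand, with every match, on either strand, in capitals. They are chr16:18186197-18186496 (+) for Mrpl34, chr7:32028473-32028772 (-) for Mrpl42, chr20:2842756-2843055 (+) for Mrps18b and chr16:76324016-76324315 (-) for Mrps31.
Mrpl34: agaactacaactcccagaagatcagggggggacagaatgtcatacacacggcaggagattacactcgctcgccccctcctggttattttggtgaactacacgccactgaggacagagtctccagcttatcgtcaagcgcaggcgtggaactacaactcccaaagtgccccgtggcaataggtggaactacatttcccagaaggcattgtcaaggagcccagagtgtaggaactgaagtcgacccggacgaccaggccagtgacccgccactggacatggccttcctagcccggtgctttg
Mrpl42: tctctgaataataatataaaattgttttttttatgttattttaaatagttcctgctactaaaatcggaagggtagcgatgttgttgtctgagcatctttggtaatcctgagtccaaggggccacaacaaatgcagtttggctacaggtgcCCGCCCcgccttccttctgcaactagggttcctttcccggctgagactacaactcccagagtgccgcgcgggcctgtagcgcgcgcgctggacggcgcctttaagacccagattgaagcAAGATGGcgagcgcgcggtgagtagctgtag
Mrps18b: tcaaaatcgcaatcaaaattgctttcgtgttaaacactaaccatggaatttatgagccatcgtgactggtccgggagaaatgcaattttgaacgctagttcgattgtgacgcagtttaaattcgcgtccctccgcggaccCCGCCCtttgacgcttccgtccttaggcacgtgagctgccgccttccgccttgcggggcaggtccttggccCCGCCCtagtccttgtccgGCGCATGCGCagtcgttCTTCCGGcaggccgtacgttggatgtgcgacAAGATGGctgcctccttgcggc
Mrps31: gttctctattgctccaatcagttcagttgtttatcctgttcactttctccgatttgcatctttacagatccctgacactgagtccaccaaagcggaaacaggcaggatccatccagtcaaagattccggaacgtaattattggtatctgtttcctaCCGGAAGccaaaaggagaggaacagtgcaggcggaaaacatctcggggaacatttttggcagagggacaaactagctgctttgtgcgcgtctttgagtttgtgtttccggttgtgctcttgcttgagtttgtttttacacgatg
Mrpl34 held none of the strings in this window, Mrpl42 held an SP1 string and, just after its start, a YY1 string, Mrps31 held an ETS string, and Mrps18b held, from left to right, a pair of SP1 strings (read on the other strand), the NRF1 motif, an ETS string (on the other strand) and a YY1 string. A match of letters is no measured binding site.

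ES50 also exceeded ES10. In that comparison 65 genes rose and 2 fell, against 33.0 and 41.3% of all genes, and rescaled to all reads none rose and 70 fell. It shares the ES50 libraries with the comparison to NC, so it is not independent of it. Mrpl34 (2.30 ± 0.15), Mrpl42 (1.95 ± 0.11) and Mrps15 (1.68 ± 0.09), a bacterial-type protein of the small subunit, changed most. Mrps15 read 7.50, 8.21 and 7.14 FPKM in ES10 and 26.4, 30.4 and 23.2 in ES50. Mrps18b fell by 0.59 ± 0.15 from 11.3, 10.9 and 12.8 FPKM, a call that was lost with only the compared libraries in the fit.

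The 10 pulses moved few of these genes. In ES10 versus NC 1 of 73 rose and 4 fell, against 6.36 and 2.21% of all genes, and the median change was -0.09 for Mrpl and -0.04 for Mrps (all genes 0.02). Mrpl44 read 6.46, 7.02 and 6.64 FPKM in ES10, all below its 3 NC values, a change of -0.40 ± 0.09 (limma, adjusted p = 0.010). Mrpl10 (5.97, 6.59 and 6.15 against 8.30, 7.60 and 7.94 FPKM) and Mrpl16, of the large subunit (8.13, 8.70 and 9.50 against 11.4, 9.94 and 11.9), changed by -0.31 ± 0.08 and -0.30 ± 0.09, and Mrps18a by -0.22 ± 0.07. Mrpl14, of the large subunit, rose by 0.21 ± 0.06 from 18.9, 21.3 and 19.4 to 21.4, 23.4 and 24.7 FPKM. These calls were close to the threshold. Leaving out NC replicate 1 or 3, or ES10 replicate 2 or 3, ended the rise of Mrpl14, leaving out NC replicate 2 ended the fall of Mrpl44, leaving out NC replicate 1 or 3 or ES10 replicate 1 left 1 fall, and leaving out ES10 replicate 2 or 3 left 2. When the fit omitted the ES50 libraries, 4 rose and 7 fell.

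PE alone left the mitoribosomal genes near their NC levels. In P versus NC 2 of 73 rose and none fell by limma's test, against 4.72 and 4.81% of all genes. At an unadjusted p under 0.05 the counts were 5 and 3, by voom 5 rose and 2 fell, and rescaled to all reads 12 rose. Mrpl14 read 23.7, 23.4 and 24.1 FPKM in P, above NC, a rise of 0.25 ± 0.06 (limma, adjusted p = 0.020), and Mrpl41, a mitochondria-specific protein of the large subunit, went from 17.6, 17.4 and 18 to 19.3, 20.6 and 22.6, a rise of 0.23 ± 0.07 (limma, adjusted p = 0.046). Leaving out any of the 6 libraries ended the call of at least 1 of the 2: none rose without NC replicate 1 or 3 or P replicate 2 or 3, and 1 without NC replicate 2 or P replicate 1. Without P replicate 3 in the fit 1 gene fell.

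With PE, the 10 pulses lowered more genes than they raised. In P-ES10 versus P 2 of 73 rose and 11 fell (1 and 7 of Mrpl, 1 and 4 of Mrps), against 13.2 and 9.66% of all genes, with a median change of -0.14 for Mrpl and -0.09 for Mrps (all genes 0.00). Mrpl44 fell again: it read 8.93, 9.08 and 10.2 FPKM in P and 6.03, 6.66 and 5.88 in P-ES10, a change of -0.53 ± 0.09 (limma, adjusted p = 0.00041). Mrpl39 (4.22, 5.31 and 4.84 FPKM in P, 2.99, 3.06 and 3.71 in P-ES10) and Mrps17, a bacterial-type protein of the small subunit (17.6, 17.3 and 20.1 against 13.3, 14 and 13.5), changed by -0.44 ± 0.12 and -0.40 ± 0.09. Mrpl12 of the stalk changed by -0.31 ± 0.09 and Mrpl41 by -0.37 ± 0.07. Mrps6, of the small subunit, rose from 24.9, 25.7 and 28.1 to 37.3, 36.8 and 37.1 FPKM (0.49 ± 0.12), and Mrpl45 from 11.8, 11.3 and 12.1 to 16.9, 13.6 and 15.5 (0.36 ± 0.07). With thinned reads the calls of Mrpl39 and Mrpl45 were lost. The 2 responses to 10 pulses share no library, and 3 genes fell in both, Mrpl16, Mrpl44 and Mrps18a, that is 3 of the 4 in ES10 versus NC and 3 of the 11 with PE. Over all genes 219 of 263 and of 1151 fell in both. The 11 falls became 7 without P replicate 2, 6 without P replicate 3 or P-ES10 replicate 2 and 5 without P-ES10 replicate 1, 18 when the fit omitted the ES50 libraries and 23 when rescaled to all reads.

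With PE, 50 pulses moved the mitoribosomal genes far less. In P-ES50 versus P 15 of 73 rose and 2 fell (8 and 2 of Mrpl, 7 and none of Mrps), against 14.1 and 14.2% of all genes, and the median change was 0.11 for Mrpl and 0.15 for Mrps (all genes -0.01). With reads thinned to the lowest nuclear depth 3 rose and 1 fell, and the calls of Mrps33 (0.17; limma, adjusted p = 0.68) and Mrpl38 were among those lost. When the fit omitted the ES50 libraries, 21 rose and 3 fell. All 3 P-ES50 libraries lay above P in 22 of the 73, against 24.2% of all genes. Rescaled to all reads on genes none rose and 70 fell, with medians of -0.70 for these genes and -0.77 for all genes. Mrps33, a mitochondria-specific protein of the small subunit, read 13.3, 14.3 and 17.8 FPKM in P and 24.6, 24.4 and 20.8 in P-ES50 (0.59 ± 0.10). Mrpl54 read 156, 160 and 190 in P and 251, 238 and 245 in P-ES50 (0.54 ± 0.07), and Mrpl10 went from 7.74, 6.43 and 7.69 to 11.1, 10.1 and 10.4 (0.47 ± 0.08). For each of these genes the groups did not overlap. Mrpl44 fell here too, to 6.58, 7.06 and 5.92 FPKM (-0.47 ± 0.09; limma, adjusted p = 0.00093), so that it passed the test as lower in 3 of the 4 comparisons of pulsed with unpulsed cells, both with PE sharing the P libraries. Mrpl38, of the large subunit, went from 10.7, 11.6 and 12.3 to 9.20, 9.59 and 8.22 (-0.33 ± 0.09), a call lost without P replicate 3 or P-ES50 replicate 3. Mrps18b, which fell in ES50, rose here from 12.3, 11.5 and 11.9 to 14.3, 18.1 and 17.3 FPKM (0.44 ± 0.15; limma, adjusted p = 0.043). The 2 responses to 50 pulses share no library. Of the genes that rose, 14 did so in both, 14 of the 63 without PE and 14 of the 15 with PE; over all genes 1053 of 3802 and of 1679 did. Across the 73 genes the 2 changes had a Spearman rho of 0.376, and across all 11917 genes 0.325, given as a description since genes of 1 library share its depth.

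**Figure D4:**
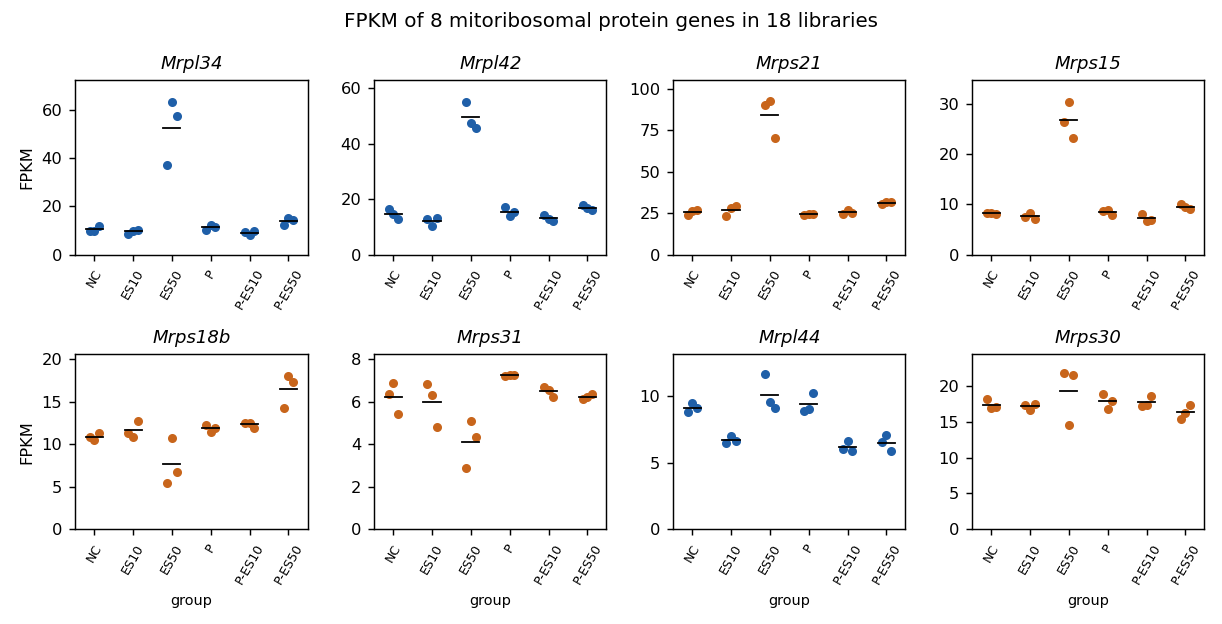
FPKM of 8 genes in each library (points; lines are group means; each axis starts at 0). In the upper row Mrpl34, Mrpl42, Mrps21 and Mrps15 stand highest in ES50; in the lower row Mrps18b is highest in P-ES50, Mrps31 lowest in ES50, Mrpl44 lower in ES10, P-ES10 and P-ES50 than in NC, and Mrps30 without a change that passed the test.

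The difference between the responses to 50 pulses with and without PE was itself tested. By this interaction, the response with PE minus that without, 61 of 73 genes were lower and 1 higher, against 27.9 and 31.1% of all genes; the median was -0.87 for Mrpl and for Mrps (all genes 0.05). The direct comparison of P-ES50 with ES50, which shares those libraries, gave 63 lower and 2 higher, against 31.9 and 37.7% of all genes, with medians of -0.80 and -0.75. Rescaled to all reads, none was lower and 69 were higher in the interaction, and none lower and 70 higher in the direct comparison. Mrpl34 had an interaction of -1.91 ± 0.22, Mrpl42 of -1.56 ± 0.15 and Mrps15 of -1.43 ± 0.13. Mrps18b alone was higher (0.95 ± 0.22; limma, adjusted p = 0.0015), and in P-ES50 against ES50 it rose by 1.06 ± 0.15, as did Mrps31 by 0.53 ± 0.14. The call of Mrps31 was lost when just ES50 and P-ES50 entered the fit (limma, adjusted p = 0.0596) and by voom (0.0898). Without ES50 replicate 2, 2 genes were higher in the interaction. Other lists went the same way on the deposited scaling. Of 87 cytosolic ribosomal protein genes 75 were lower in the interaction (median -0.95) and 77 in P-ES50 against ES50. Of 76 nuclear respiratory chain genes 65 (median -0.81) and 70 were lower.

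Among genes for the rest of the mitochondrial translation machinery some rose and some fell in ES50 versus NC, where 31.9% of all genes rose and 40.1% fell. The rule left out a handful of ribosomal proteins with other symbols. Of 5 measured from the list, 3 rose and 1 fell in ES50 versus NC: Gadd45gip1, at the tunnel exit (1.12 ± 0.12), Chchd1, of the small subunit (1.1 ± 0.14), and Ict1, a large-subunit protein that frees stalled ribosomes (0.91 ± 0.10), rose, and Ptcd3, of the small subunit, fell (-0.45 ± 0.08). The lower-case symbols mrpl11, of the stalk base, and mrpl24 rose by 1.1 ± 0.09 and 0.50 ± 0.09, while mrpl9 stood at 8.13 ± 0.386 FPKM in NC and 8.76 ± 5.85 in ES50 and did not pass. Mrp63 passed as higher (0.61 ± 0.22; limma, adjusted p = 0.021) on uneven ES50 libraries, with 5.37 ± 0.640 FPKM in NC and 9.4 ± 5.10 in ES50. Of 23 assembly factors 10 rose and 5 fell, with a median of 0.29: the GTPases Mtg1 (1.02 ± 0.09) and Mtg2 (1.04 ± 0.09) and the rRNA chaperone Eral1 (0.86 ± 0.10) rose, and Fastkd2, which binds the large rRNA, fell (-0.77 ± 0.11). Of 18 translation factors 7 rose and 4 fell, with a median of 0.15: the recycling factor Mrrf (0.87 ± 0.10) and the release factor Mtrf1l (0.61 ± 0.09) rose, and the messenger-binding Lrpprc (-0.66 ± 0.07) and the initiation factor Mtif2 (-0.57 ± 0.13) fell. In P-ES50 versus P, 2 assembly factors rose and 4 fell, and 1 translation factor fell, where 14.1% of all genes rose and 14.2% fell. Rescaled to all reads all 23, all 18 and all 5 fell in ES50 versus NC.

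The 2 ribosomal RNAs of the mitochondrial genome, listed by identifier and class only, rose steeply. The one of 958 bases stood at 359 ± 35.3 FPKM in NC, 30159 ± 632 in ES50, 133 ± 9.51 in P and 1828 ± 120 in P-ES50, and the one of 1571 bases at 325 ± 35.8, 20061 ± 447, 126 ± 3.08 and 1081 ± 72.3 (SD, n = 3). Their log2 changes were 6.39 ± 0.07 and 5.95 ± 0.07 in ES50 versus NC and 3.78 ± 0.07 and 3.09 ± 0.07 in P-ES50 versus P. They rose under all 3 other scalings too, with medians of 2.63 and 2.54 when rescaled to all reads. In P versus NC both rRNAs fell (-1.43 ± 0.07 and -1.36 ± 0.07), and in P-ES10 versus P both rose (0.89 ± 0.07 and 1.33 ± 0.07). The mitochondrial genome as a whole took 11.6 to 14% of reads in NC and 91.4 to 92.9% in ES50. Its share was 5.41 to 5.60% in P and 46.7 to 49.6% in P-ES50. Whether the rRNAs rose more than the rest of that genome was not tested. Libraries were made from poly(A)-selected RNA, so these values cover rRNA only as far as it was captured. For scale, 77 of 87 cytosolic ribosomal protein genes (Rpl and Rps symbols) rose in ES50 versus NC with a median of 1.22, and 72 of 76 nuclear respiratory chain genes with a median of 1.05. Over all genes 31.9% rose in that comparison. In P-ES50 versus P 59 of the 87 and 33 of the 76 rose, where 14.1% of all genes did. After quantile normalization the medians in ES50 versus NC were 0.33 and 0.58, and 0.87 for the mitoribosomal genes. Whether the lists differ was not tested.

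The change in ES50 went along with gene length, among these genes as among all others. The median annotated length was 1110 bases for the 73 genes and 2280 for all 10803 nuclear protein-coding genes tested. Below 1000 bases the median log2 change was 1.08 for 34 mitoribosomal genes and 0.74 for 1288 genes in all. From 1000 to 2000 bases it was 0.83 (27 genes) and 0.21 (3246), and from 2000 bases 0.66 (12 genes) and -0.33 (6269). Spearman's rho of change with length was -0.389 over the 73 genes and -0.388 over all, a description across genes of the same libraries. In each length class the mitoribosomal median in ES50 versus NC was above that of all genes. Lengths within a class were not alike: from 2000 bases their medians were 2309 bases for the 12 genes and 3275 for the 6269. In P-ES50 versus P the mitoribosomal median was 0.15 below 1000 bases, under the 0.18 of all genes. It was 0.07 against 0.03 from 1000 to 2000 bases, and 0.14 against -0.05 from 2000. What part length has in the change was not tested. Higher genes in NC also had larger changes (rho 0.473 over the 73 genes), which was not seen over all genes (0.0519); the log2 scale with 1 added compresses the changes of low genes.

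**Figure D5:**
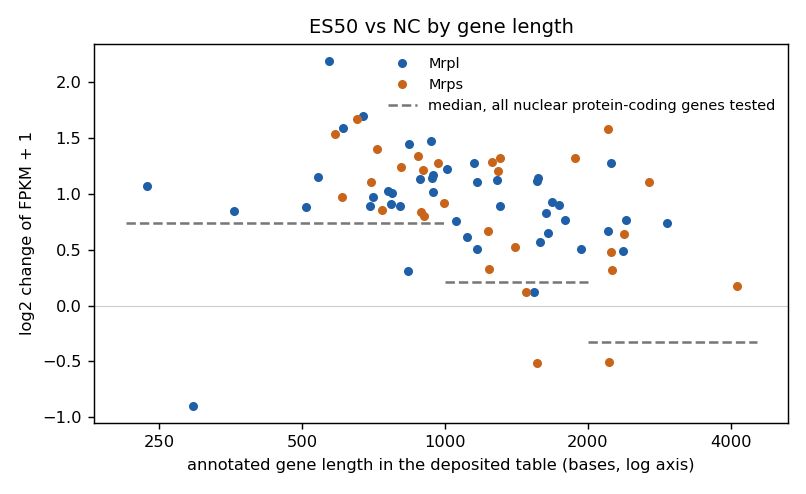
Log2 change in ES50 versus NC against annotated gene length (log axis) for the 73 tested genes; dashed lines are medians of all nuclear protein-coding genes in 3 length classes (0.74, 0.21 and -0.33). Most points lie above the dashed line of their class.

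Many of these genes start back to back with another. In Rnor 6.0, 19 of the 73 (26.0%) had a protein-coding neighbour starting on the opposite strand within 1000 bases, against 10.3% of all nuclear protein-coding genes tested. Mrpl46 and Mrps11 face each other, 72 bases apart, and rose by 0.56 ± 0.14 and 0.84 ± 0.10. Of the 15 tested neighbours that are no mitoribosomal gene, 4 rose and 5 fell in ES50 versus NC, near the shares of all genes (31.9 and 40.1%), with a median of -0.22 (all genes -0.13), against 0.89 for the mitoribosomal genes beside them, which had the higher value in 13 of 15. Mrpl18 rose by 1.17 ± 0.10 beside Tcp1 (-0.51 ± 0.08), Mrpl43 by 0.90 ± 0.08 beside Peo1 (-0.63 ± 0.07) and Mrps34 by 0.80 ± 0.08 beside Eme2 (-0.93 ± 0.15). Mrps12 and Sars2, 16 bases apart, rose by 1.4 ± 0.11 and 0.63 ± 0.16. Mrps18b and its neighbour Ppp1r10 (-1.33 ± 0.11), 584 bases apart, both fell. These pairs were chosen after their values were seen. In all, 11 of the 73 overlap another annotated gene, such as Mrpl43 with Peo1 and Mrps7 with Gga3. Whether counting used strand is not given, so reads of overlapping genes cannot be told apart.

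Some reads could not be assigned with certainty. The table lists genes named as near copies of Mrpl1 (LOC100359687), Mrpl41 (RGD1560917) and Mrps11 (LOC690271), between which reads could have been split. The first stood at 1.99 ± 0.341 FPKM in NC, above Mrpl1 itself (0.614 ± 0.329), and the other two were near 0 in NC. From this low level Mrpl1 is counted among the genes that rose in ES50 versus NC (0.62), where the copy stood at 1.81 ± 1.58. In P the mean of Mrpl1 was 2.18 times that in NC, while the copy stood lower, at 0.832 ± 0.344, neither change passing the test. Whether reads moved between the copies was not tested.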

How the data were processed

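The deposited table of 18 libraries gives FPKM per gene, made by the authors. The submitters' processing notes name the build Rnor 6.0. The aligner, counter, annotation and strandedness are not given in any source used here. Multiplied by gene length, 100% of values were whole multiples of 1 step per library (within 0.01 of a read), which gave 14004929 to 17247201 reads on genes. The deposited scaling sets the median gene about equal between libraries.

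Genes with at least 1 FPKM in 3 or more libraries (11917) were fitted as log2(FPKM + 1) with limma 3.58.1 (R 4.3.3), with the 6 group means over all 18 libraries and a mean trend in the prior variance. P-values were adjusted over all genes tested by the Benjamini-Hochberg method, with a threshold of 0.05. The 8 comparisons were made within that fit. The same kind of fit was also run on simulated data for ES10 and ES50 versus NC. Those data were drawn from NC levels with the same dispersion in all groups, so they cannot show how the fit does where groups differ in spread. Values are means ± SD over 3 libraries, or log2 changes ± SE.

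Named genes are, in each comparison, the 3 largest rises and the 3 largest falls among genes that passed the test and whose libraries did not overlap (without that condition for the interaction), those with 0 reads in a library or under the filter, and Mrpl12, Mrpl10, Mrpl11, Mrps12, Mrpl58, Mrps18b, Mrpl44, Mrps30 and Mrps36 by role. From other lists up to 4 genes with the smallest adjusted p in ES50 versus NC are named. Other names were chosen after their values were seen. The members and lists were chosen with earlier results of these data known. Alternatives were other scalings, pseudocount, filter, libraries in the fit, replicate numbers as a block, thinned reads and, chosen after seeing the data, voom on the recovered reads and a fit without the ES50 libraries.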

Additional observations from a re-analysis of the deposited data

Results flagged for a closer look

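The response of these genes to 50 pulses differed with and without PE by the interaction term of limma's fit, for 61 genes as lower and for 1 gene as higher. Over all genes 27.9% were lower and 31.1% higher. This was not particular to mitoribosomal genes. Of the cytosolic ribosomal protein genes 75 of 87 were lower (median -0.95), and of the nuclear respiratory chain genes 65 of 76 (median -0.81). The interaction was 0.95 for Mrps18b on the log2 scale, and -1.91 for Mrpl34, -1.56 for Mrpl42 and -1.43 for Mrps15. Scaled to all reads on genes, where the median of all genes itself moved by 1.6, these 3 negative values turned to 0.57, 0.92 and 0.94. The mitochondrial genome took 91.4 to 92.9% of reads in ES50 and 46.7 to 49.6% in P-ES50, and its part in the difference was not tested.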

How the results depend on the processing

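Counts of genes called depended most on the scaling. Scaled to all reads on genes, 0 rose and 71 fell in ES50 versus NC, 0 and 70 in ES50 versus ES10, 0 and 70 in P-ES50 versus P, 70 and 0 in P-ES50 versus ES50, and 69 and 0 in the interaction, while in P versus NC 12 rose and in P-ES10 versus P 23 fell. The medians of Mrpl and Mrps became -2.17 and -2.08 in ES50 versus NC, -2.06 and -2.08 in ES50 versus ES10, -0.72 and -0.68 in P-ES50 versus P, 1.59 and 1.61 in P-ES50 versus ES50, and 1.46 and 1.5 in the interaction. The changes in ES50 versus NC became -1.14 for Mrpl34, -1.65 for Mrpl42, -1.75 for Mrps21, -2.18 for Mrpl12, -2.13 for Mrpl10, -2.04 for Mrps12, -2.73 for Mrpl44, -3.01 for Mrps30 and -1.77 for Mrps36. In ES50 versus ES10 they became -0.99 for Mrpl34, -1.35 for Mrpl42 and -1.47 for Mrps15, in P-ES50 versus P -0.27 for Mrps33, -0.36 for Mrpl54 and -0.34 for Mrpl10, in P-ES50 versus ES50 0.78 for Mrpl34, 1.1 for Mrpl42 and 1.08 for Mrps15, and in the interaction 0.57, 0.92 and 0.94 for the same 3 genes. By construction this setting adds the reads on the mitochondrial genome to the scale.

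The 1 rise in ES10 versus NC, that of Mrpl14, was lost, with 0 genes called, when scaled to all or to nuclear reads, by quantile normalization, without a filter, with the replicate block and with thinned reads, and was also lost with only the groups compared, where 3 other genes rose. By voom 3 genes rose and in a fit that leaves out ES50 4 did, Mrpl14 among them. The 4 falls there became 7 by nuclear reads, with only the groups compared and without the ES50 libraries, 8 by voom, 2 without a filter and 0 with thinned reads, where Mrpl44 stood at 0.031 and Mrpl16 at 0.082. The 2 falls in ES50 versus NC became 1 by quantile normalization, with thinned reads and by voom. With only the groups compared neither of the 2 was kept, and 1 other gene fell. Those in ES50 versus ES10 became 1 by quantile normalization, with thinned reads and by voom, and 0 with only the groups compared. In P versus NC the 2 rises became 1 by nuclear reads, without a filter and with the replicate block, 4 with only the groups compared, 0 with thinned reads, 5 by voom and 5 without the ES50 libraries, and 1 gene fell with only the groups compared and 2 by voom. The 11 falls in P-ES10 versus P became 18 with only the groups compared, by voom and without the ES50 libraries, and 4 with thinned reads. In P-ES50 versus P thinned reads left 3 rises and 1 fall. There 12 rose and 2 fell without a filter, 17 and 3 with only the groups compared, 19 and 2 by voom, and 21 and 3 without the ES50 libraries. In P-ES50 versus ES50 1 gene rose with only the groups compared or by voom, Mrps31 being lost, and in the interaction 2 were higher with only the groups compared. Apart from thinning, which leaves fewer reads by construction, the cause was not tested.

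Leaving out 1 library at a time gave 0 to 1 rises and 1 to 3 falls in ES10 versus NC, 60 to 65 and 2 to 3 in ES50 versus NC, 64 to 66 and 2 to 2 in ES50 versus ES10, 0 to 1 and 0 to 1 in P versus NC, 2 to 3 and 5 to 9 in P-ES10 versus P, 11 to 14 and 1 to 2 in P-ES50 versus P, 2 to 2 and 60 to 64 in P-ES50 versus ES50, and 1 to 2 and 56 to 63 in the interaction. Replicates carry only numbers: same-numbered libraries had a mean correlation of deviations of -0.000114, and 7 of 18 correlated best with their own number. With the replicate block 63 genes rose in ES50 versus NC. An alternative with edgeR was not run, since the deposited unit is FPKM. Depth limits ES50 most, where the median gene of this set had 56 to 72 reads per library against 309 to 361 in NC.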
